A study of Mus musculus and Homo sapiens with 6 samples.

Results

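The regions described here are stretches of open chromatin that lie far from any gene in NMuMG cells, a cultured epithelial line from the mammary gland of a mouse. The assay was ATAC-seq, which maps accessible DNA by letting Tn5 transposase cut it and tag the ends. Each of 4 cell numbers, 25000, 50000, 75000 and 100000, gave 1 library. All were labelled with the NMuMG genotype, fewer than 10 passages and a time of 0 h, with no treatment named beyond culture and trypsin harvest, and no other allele or agent is named in the labels. The purpose given for the series is to tune the ATAC-seq protocol. The series also holds 2 MDA-MB-231 samples (human), which are not used here. For the mouse cells there is a deposited list of peaks per library in mm10 coordinates, and each peak carries a whole-number score from the authors' peak caller.

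The peaks of the 4 lists were merged wherever they shared at least 1 bp, which gave 55702 regions. A member is an autosomal region with a peak in all 4 lists whose centre lies 50 kb or more from every gene of a RefSeq gene table, of any kind (coding, non-coding or pseudogene). Chromosome 15 from 61 to 64 Mb, around Myc and Pvt1, was left out. This rule was met by 589 regions, out of 25198 autosomal regions with a peak in all 4 lists outside that block. The members were chosen by presence in all 4 lists and by distance from genes, and counts by these measures are given as descriptions. With 1 library per cell number there is no replicate error, so no test was made between cell numbers or between kinds of region, and a difference is described by its size in each list.

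Open chromatin outside promoters marks sequence where proteins displace nucleosomes, such as enhancers, which can act on a gene over long distances, and binding sites of the insulator protein CTCF, which shape chromatin loops. Long stretches without genes, often called gene deserts, tend to flank genes for developmental regulators and cell adhesion proteins, and some are known to hold enhancers of the gene at their edge. A list of peaks shows where DNA is open, not which gene a region acts on. The nearest protein-coding gene is named below only to place a region.

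The deposited lists and the tables used here hold no sequence of the members themselves. Sequences are therefore shown for starts of 3 genes, those nearest to the most members among genes with a start peak in all 4 lists. Cdyl, tied with Jag1 and Gpam, was taken for its highest-scoring member, and 1 of its 3 annotated starts is shown. Gene starts are shown because the distal regions are set side by side with them below. The sequences are the 250 bases before the transcription start, 5′ to 3′ on the gene's strand, from RefSeq for GRCm38.p6, the assembly that mm10 names. Gadd45g lies on the plus strand with its promoter at chr13:51846425-51846674, Gata3 on the minus strand with chr2:9878601-9878850, and Cdyl on the plus strand with chr13:35741212-35741461. Capitals mark matches on either strand to the GC box GGGCGG, the CCAAT box CCAAT, the TATA box TATAAA or the AP-1 motif TGANTCA, with overlapping matches allowed.
Gadd45g: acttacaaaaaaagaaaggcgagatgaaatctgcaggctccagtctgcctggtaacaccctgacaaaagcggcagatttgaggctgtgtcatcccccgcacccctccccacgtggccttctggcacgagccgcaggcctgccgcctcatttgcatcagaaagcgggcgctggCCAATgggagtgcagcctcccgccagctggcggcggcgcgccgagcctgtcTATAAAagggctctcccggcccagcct
Gata3: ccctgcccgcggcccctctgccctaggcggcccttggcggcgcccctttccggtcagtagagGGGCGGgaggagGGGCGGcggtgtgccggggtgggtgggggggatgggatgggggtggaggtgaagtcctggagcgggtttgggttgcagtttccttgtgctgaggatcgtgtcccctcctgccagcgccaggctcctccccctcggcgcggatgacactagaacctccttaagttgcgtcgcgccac
Cdyl: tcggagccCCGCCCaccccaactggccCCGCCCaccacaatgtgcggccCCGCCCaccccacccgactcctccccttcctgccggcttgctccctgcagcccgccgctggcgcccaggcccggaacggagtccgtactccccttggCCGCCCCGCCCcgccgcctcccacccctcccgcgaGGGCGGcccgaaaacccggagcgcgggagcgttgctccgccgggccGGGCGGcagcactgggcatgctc

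Gadd45g, which encodes a stress-inducible growth regulator, had 1 TATA box and 1 CCAAT box in this window and no GC box. Gata3, a transcription factor gene of luminal mammary cells, had 2 GC boxes. Cdyl, which encodes a chromodomain co-repressor, had 7 GC boxes, some of them overlapping. None of the 3 windows held the AP-1 motif. Of 21263 windows of the same length before starts of protein-coding genes, 42.6% held a GC box, 35.4% a CCAAT box, 11.6% a TATA box and 6.13% the AP-1 motif. G and C made up 62%, 70% and 78% of the bases of the 3 windows in the order printed, beside a median of 55.6% over all windows. Start peaks are given as the highest score within 1 kb of any annotated start of a gene. At Gadd45g they scored 15, 43, 30 and 29 in the lists of 25000, 50000, 75000 and 100000 cells, the order used throughout. At Gata3 they scored 60, 50, 38 and 47, and at Cdyl 40, 34, 45 and 50. Because Cdyl has 3 annotated starts, its scores may belong to a start other than the one printed.

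The 4 lists held 38878, 43832, 41509 and 45530 peaks, all with a score of 8 or more, and carry no read counts, so that the sequencing depth is unknown. Among markers of the labelled cell type, 6 of 10 epithelial genes had a peak within 1 kb of a start or end in all 4 lists (Cdh1, Krt8, Krt18, Jup, Dsp and Elf3), and Epcam, Grhl2 and Esrp1 had none in any list. The share over all autosomal protein-coding genes was 48.5%. Of the mammary luminal markers, Gata3 and Foxa1 had such peaks (2 of 6), and of 4 mammary basal markers none did. Of 5 fibroblast, 5 blood, 4 endothelial and 4 neuronal markers, 1 (Col1a1), 1 (Spi1), 0 and 0 had a peak in all 4 lists.

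Regions 50 kb or more from genes were found in fewer lists than other regions. Of 1864 such autosomal regions in any list, 637 (34.2%) were in 1 list, 344 in 2, 294 in 3 and the 589 members in all 4 (31.6%, 95% Clopper-Pearson interval 29.5 to 33.8). Of all autosomal regions, 46.7% were in all 4 lists, and of all merged regions of the genome 46.3%. By location it was 38.4% between genes under 50 kb, 40.0% elsewhere in genes and 69.1% within 1 kb of a gene end. Since presence in all 4 lists is part of the rule, nothing further is read from these shares. All such intervals cover counting error only.

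The sharing of distal peaks was also set out by score, because low-scoring peaks were shared less. Among peaks scoring 8 or 9, the share of distal peaks in a region of all 4 lists was 32.2% at 25000 cells (95% Clopper-Pearson interval 26.7 to 38.1), 15.8% at 50000 (12.0 to 20.1), 14.9% at 75000 (11.2 to 19.3) and 13.4% at 100000 (9.89 to 17.5). Peaks between genes but under 50 kb from one gave 33.8%, 21.0%, 28.1% and 18.4% at the same scores, and peaks within 1 kb of a gene end 64%, 48.4%, 55.3% and 47.8%. At scores from 15 to 24 the distal shares were 87.3%, 73.9%, 77.7% and 70.3%, those between genes under 50 kb 86.5%, 74.1%, 81.9% and 70.2%, and those at gene ends 94.3%, 85.3%, 89.7% and 81.5%. At 50 and above, all distal peaks (19, 42, 43 and 46 per list) were in regions of all 4 lists. Gene-end regions were also wider, as given below, and the part of width in these shares was not tested. Presence in all 4 lists is a value the rule used, so these shares too are given as descriptions only.

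Members were thinly spread. Sequence 50 kb or more from every gene, between the first and last gene of each autosome, came to 359 Mb, or 15.0% of the sequence so bounded, and held 2.34% of the regions of all 4 lists. This is 1.64 members per Mb, where the rest of the autosomes held 12.1 regions per Mb, or 7.36 times as many. Stretches of unknown sequence in the assembly were not taken out of these lengths. Distal sequence of the left-out chromosome 15 block was counted in the 359 Mb, although its regions were not. The full block was taken off the total, so the rest is counted short by that same distal sequence. By chromosome the density ran from 0.692 members per Mb on chromosome 4 and 0.724 on chromosome 14 to 3.09 on chromosome 13, which had 52 members in 16.8 Mb. Chromosome 13 was not dense elsewhere, with 10.4 regions per Mb outside distal sequence, while chromosomes 4 and 14 were low there too, at 7.45 and 5.59.

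Scores of members were lower than those of other regions found in all 4 lists. Their median scores were 16, 20, 18 and 21 in the 4 lists, with interquartile ranges of 12 to 24, 14 to 29, 14 to 27 and 14 to 31. Regions between genes but under 50 kb away had medians of 18, 21, 20 and 22, regions elsewhere in genes 19, 22, 21 and 23, and regions within 1 kb of a gene end 25, 32, 30 and 34. Members were the lowest in each list, and their interquartile range overlapped that of every other kind in every list. A score of 25 or more in every list was reached by 101 members (17.1%, 14.2 to 20.4), beside 30.9% of all autosomal regions of all 4 lists and 21.4% of those between genes under 50 kb. All 4 scores were under 25 in 284 members (48.2%), beside 33.9% of all autosomal regions of all 4 lists. It was 43.0% between genes under 50 kb and 40.2% elsewhere in genes.

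**Figure D1:**
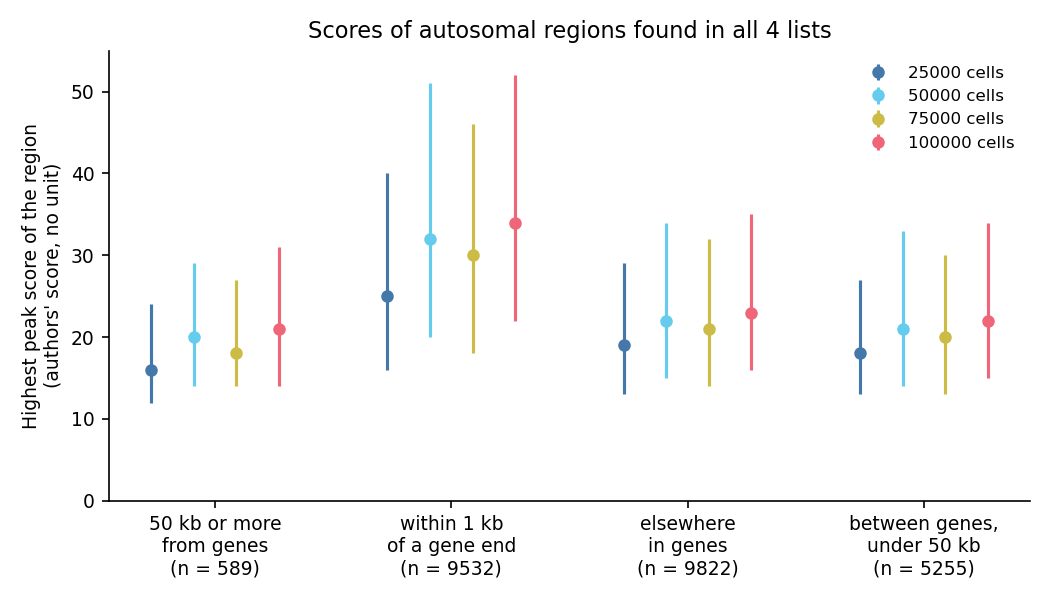
Median peak score (points) with the lower and upper quartiles (lines) in each list for autosomal regions with a peak in all 4 lists, by location; colours stand for the 4 cell numbers and n is the number of regions. Members, 50 kb or more from genes, have medians of 16 to 21 and regions within 1 kb of a gene end 25 to 34.

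Members were narrow. The merged region of a member was 450 to 1150 bp wide, with a median of 650 bp, and 9 of them (1.53%) reached 1000 bp, beside 16.4% of all autosomal regions of all 4 lists. The median was also 650 bp between genes under 50 kb, 700 bp elsewhere in genes and 850 bp at gene ends. At like scores, with mean score percentiles from 50 to 75, the median was 650 bp for members and 800 bp at gene ends, and from 90 to 100 it was 750 bp and 950 bp. Here a score percentile places the highest peak of the region among the peaks of a list, averaged over the 4 lists. It is the share of peaks that score lower, with peaks of equal score counted to their midpoint. Most members, 537 (91.2%), were made of a single peak per list, beside 77.9% of all autosomal regions of all 4 lists. It was 85.4% between genes under 50 kb, 84.1% elsewhere in genes and 66.6% at gene ends.

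The same positions recurred closely. In 331 members (56.2%) the centres of the highest peaks of the 4 lists lay within 50 bp of each other, the step on which nearly all the authors' peak positions lie, and in 512 (86.9%) within 100 bp. The rule itself requires the peaks of a member to overlap, which limits how far their centres can differ. Across the 589 members, Spearman's rank correlation of scores between pairs of lists was 0.64 to 0.71, and across all 25198 autosomal regions of all 4 lists 0.77 to 0.82. These are descriptions across regions, which share the cells and the peak caller and are not replicates. The score percentile of a member differed between its lowest and highest list by 25.4 points in the median member. The most uneven member, on chromosome 13 at 35469251 to 35470000 and 190 kb before Cdyl, scored 8, 48, 31 and 31. In 140 members (23.8%) the score was 8 or 9 in at least 1 list. This count, the spread of percentiles and the counts of centres were made for members only. They were not set beside other regions, so they are not given as particular to distal ones.

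Median scores were alike over the range of distances. Members lay 50.05 to 446 kb from the nearest annotated gene, with a median of 79.8 kb, and 201 of them (34.1%) were 100 kb or more away. Median scores at 50 to 75 kb were 17.5, 21, 19 and 22.5 (268 members), and at 150 to 250 kb 17, 18, 18 and 20 (57 members). A score of 25 or more in every list was found in 19.8% of the former and 7.02% of the latter, which is 4 members. The members nearest to the limit lay 50.05 to 50.09 kb from a gene, on chromosome 14 at 36147151 to 36147750 (scores of 17, 20, 20 and 26) and 46277301 to 46278200 (11, 12, 17 and 9) and on chromosome 9 at 8493451 to 8494100 (23, 21, 16 and 11). The 3 regions just short of it, 49.9 kb from a gene, were on chromosome 3 at 144285951 to 144286600 (14, 26, 16 and 11), chromosome 18 at 79247301 to 79247950 (15, 12, 15 and 12) and chromosome 9 at 35369951 to 35370550 (11, 11, 14 and 10).

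The nearest annotated gene was non-coding in most cases. It was a long non-coding RNA gene for 221 members (37.5%), a pseudogene for 176 (29.9%) and a protein-coding gene for 126 (21.4%). These kinds make up 26.4%, 18.8% and 44.0% of the autosomal genes in the table. Genes that border distal sequence were not counted by kind, so these shares are not a like baseline. The nearest protein-coding gene was 50.05 to 2200 kb away, with a median of 176 kb. For 80 members (13.6%) it was 500 kb away or more.

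The member with the highest score percentile, at 3109601 to 3110250 on chromosome 12, scored 158, 119, 146 and 149. It lies near the lower end of the assembled chromosome, with the pseudogene Gm48310 at 54.7 kb and no protein-coding gene before it, the first after it being Rab10, a vesicle transport GTPase gene, at 138 kb. It scored highest of the 589 in each list. The member at 5860251 to 5860950 on chromosome 3, between Pex2, a gene for peroxisome assembly, and 1700008P02Rik, scored 136, 109, 64 and 83. It was next to the highest at 25000 and 50000 cells and lower at 75000, where other members passed it. Nothing was removed from the lists for repeated sequence.

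The next members by score lay beside genes of several kinds. On chromosome 19 at 14655151 to 14655900, 57.3 kb from Tle4, which encodes a Groucho-type co-repressor, the scores were 66, 100, 93 and 93. The start of Tle4 carried peaks of 167, 206, 193 and 199. On chromosome 3 at 83445901 to 83446800, between the protocadherin gene Dchs2 at 83.3 kb and the Wnt antagonist gene Sfrp2 at 319 kb, they were 63, 89, 80 and 90. On chromosome 8 at 26886951 to 26887650, 90 kb from Zfp703, a zinc finger co-repressor gene of luminal breast cells, the values were 68, 78, 96 and 80, and the other flanking coding gene, Thap1, was 723 kb away.

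A second member of chromosome 8, at 31520701 to 31521500, lay between Fut10, a fucosyltransferase gene (256 kb), and Nrg1, the gene for the ERBB ligand neuregulin (286 kb), and scored 60, 69, 76 and 92. On chromosome 13 at 78809451 to 78810200, 611 kb from the nuclear receptor gene Nr2f1 and 2074 kb from Arrdc3, the scores were 48, 68, 85 and 90. The start of Nr2f1 itself had a peak only at 100000 cells, with a score of 12. On chromosome 19 at 24615601 to 24616350, between Pip5k1b, a lipid kinase gene, at 60.1 kb and Tmem252 at 58.0 kb, they were 63, 60, 76 and 76. On chromosome 11 at 56900851 to 56901650, 110 kb from the glutamate receptor gene Gria1 and 860 kb from Nmur2, a neuromedin receptor gene, they were 55, 62, 72 and 87. On chromosome 15 at 16403951 to 16404750, 324 kb from the cadherin gene Cdh9 and 3228 kb from Cdh6, they were 41, 84, 88 and 86. The list of 25000 cells gave the lowest score of the 4 in 7 of the 10 highest members, but scores of different lists are not on a shared scale.

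**Figure D2:**
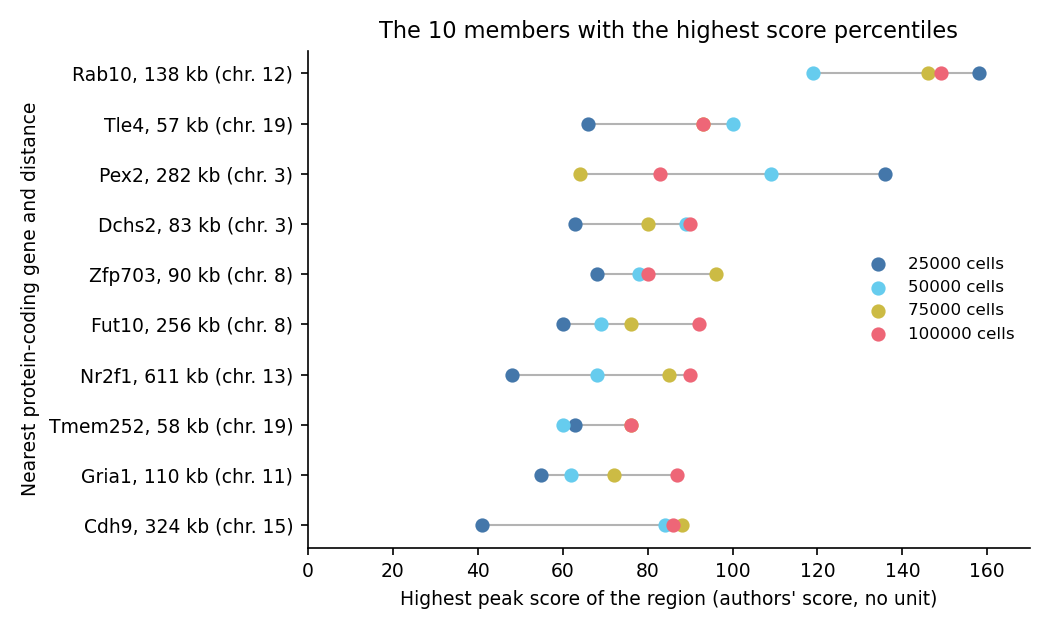
Scores in the 4 lists (coloured points, joined by a line) of the 10 members with the highest mean score percentile, named by the nearest protein-coding gene, its distance and the chromosome; coinciding points hide each other. The chromosome 12 member scores 119 to 158 and the other 9 lie between 41 and 136.

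At the other end, the member on chromosome 10 at 54814501 to 54815000 (between Man1a and Tbc1d32) scored 8, 8, 8 and 10. On chromosome 15 at 59723001 to 59723450, 66.1 kb from the pseudokinase gene Trib1, the scores were 9, 8, 10 and 8, and on chromosome 11 at 8104801 to 8105400, between Igfbp3 and Tns3, they were 8, 11, 8 and 9. The widest members were not the strongest. They lay on chromosome 9 at 34279201 to 34280350 (1150 bp, with scores of 32, 39, 33 and 37), 206 kb from the cell adhesion gene Kirrel3 with Ets1 as the coding gene before it, and on chromosome 13 at 6193001 to 6194150 (1150 bp, with 24, 40, 24 and 24), 323 kb from Klf6. The third, on chromosome 18 at 11496301 to 11497400 (1100 bp, with 15, 26, 14 and 14), lay between Gata6 and Rbbp8.

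The members farthest from any gene were not among the strongest. On chromosome 5 at 46860801 to 46861400, 446 kb from any gene and between Lcorl and Slit2, an axon guidance gene, the scores were 9, 9, 19 and 26. On chromosome 8 at 6572001 to 6572700, 348 kb from any gene and between Slc10a2 and the ephrin gene Efnb2, they were 13, 29, 24 and 20. On chromosome 5 at 80551601 to 80552250, 342 kb from any gene and 467 kb from Adgrl3, they were 13, 12, 11 and 20. None of the 3 scored 30 or more in any list.

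Most members stood alone. Of the 589, 105 (17.8%, 14.8 to 21.2) had another member inside a 25 kb window centred on them, and the median distance to the next member was 155 kb. The median distance to any other region of all 4 lists was 53.5 kb, compared with 11.5 kb for regions between genes under 50 kb and 14.5 kb for those at gene ends. The rule fixes part of this difference, since no region at a gene end can lie close to a member. Chained by such windows, members formed 484 singles, 41 pairs, 6 groups of 3 and 1 group of 5. Linking members up to 5 kb apart left 10.9% of members with a neighbour and 3 groups of 3 or more, and linking up to 50 kb gave 39.0% and 21 groups. Members with another in the window had median scores of 16, 23, 20 and 23, and those alone 16, 19.5, 18 and 20.

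**Figure D3:**
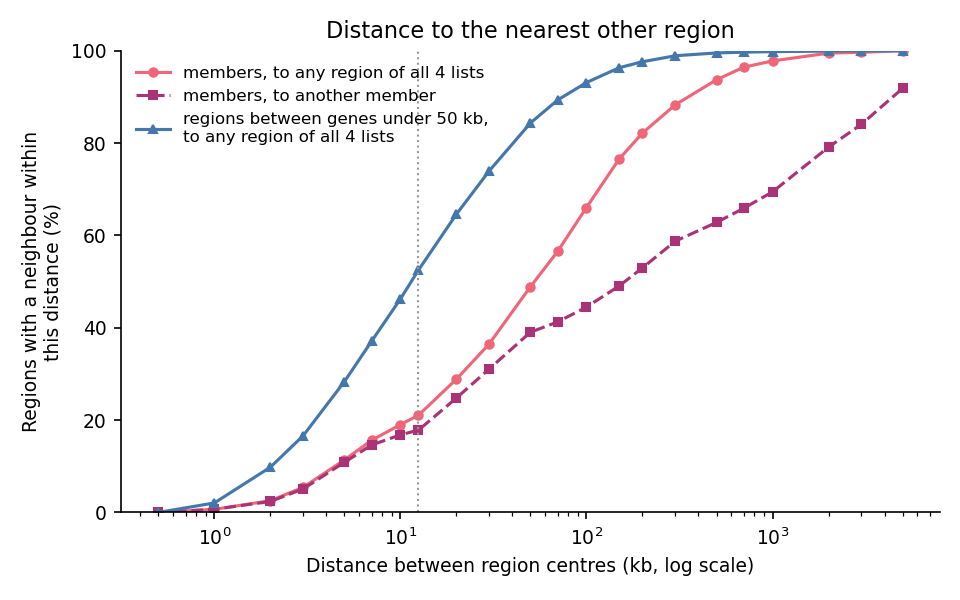
Share of regions (%) with another region within the distance on the x axis (kb between centres, log scale); the dotted line marks the edge of a 25 kb window centred on the region. There it is 21.1% for members to any region of all 4 lists, 17.8% for members to another member and 52.5% for regions between genes under 50 kb.

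The group of 5 lay on chromosome 13, over 13.2 kb and 114 to 128 kb beyond the end of Gadd45g. From the Gadd45g side its members scored 29, 34, 22 and 22 (at 51962601 to 51963200), 16, 12, 24 and 12 (at 51964201 to 51964950), and 40, 36, 28 and 33 (at 51968651 to 51969300). The strongest, at 51969901 to 51970600, scored 68, 60, 56 and 64, and the last, at 51975701 to 51976500, 24, 26, 21 and 17. The member at 51969901 was the highest of the group in all 4 lists. A further 3 members of the same gap, at 51946001, 52013451 and 52017651, scored 11 to 24.

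Of the 6 groups of 3, the 4 with the highest summed score percentile are described. On chromosome 8, the group near Zfp703 spanned 10.0 kb and contained the member of 68, 78, 96 and 80 between weaker members of 13, 24, 19 and 22 and of 16, 25, 17 and 26. On chromosome 3, 69.0 to 78.6 kb from the scaffold protein gene Magi3, a group over 9.68 kb had scores of 25 to 31, 14 to 28, 24 to 28 and 14 to 47 in the 4 lists. On chromosome 11, 81.2 to 89.1 kb from Spred2, an inhibitor gene of the MAPK pathway, the ranges were 9 to 20, 21 to 23, 12 to 27 and 18 to 23. On chromosome 13, 80.4 to 86.2 kb from Atp6ap1l, they were 9 to 27, 15 to 36, 11 to 23 and 10 to 35.

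Members were then placed in the gaps between neighbouring annotated genes. There were 2803 autosomal gaps longer than 100 kb, the least that can hold a member, and 408 of them (14.6%) held at least 1. Gaps in the left-out chromosome 15 block are among the 2803, and the regions of that block are not counted in them. A single member was found in 289 gaps, 2 in 86, 3 in 20 and 4 to 8 in 13. Members per Mb of distal sequence fell with the length of the gap, from 4.03 in gaps of 100 to 150 kb and 2.04 in those of 200 to 300 kb to 0.535 in those of 500 to 1000 kb and 0.381 in the 12 gaps above that. The longest gap without a member, 1468 kb on chromosome 4 between the ephrin receptor gene Epha7 and the kinase gene Map3k7, held no region of all 4 lists. Nor did the next 5, which lay among others between Cdh6 and Cdh9, between Cdh2 and Dsc3 and between Pcdh20 and Pcdh9. These gaps, and those of the next paragraph, were picked out after their values were seen.

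The gap with the most members was that beyond Gadd45g on chromosome 13, with 8 in 134 kb of distal sequence, or 5.96 per 100 kb. On chromosome 5, 6 members lay in 168 kb between Smim20 and Rbpj, the gene for the DNA-binding protein of Notch signalling. The member nearest to Rbpj, at 53490451 to 53491250 and 64.9 kb before the gene, scored 51, 72, 66 and 72, and the other 5 scored 12 to 36. On chromosome 2, 6 members lay between Jag1, which encodes a ligand of Notch receptors, and Btbd3. The strongest, at 137413251 to 137414000 and 297 kb before the start of Jag1, scored 50, 46, 50 and 45, and the remaining 5 scored 9 to 26. The gap before Cdyl on chromosome 13 also held 6, of which the strongest, at 35395451 to 35396200, scored 62, 52, 40 and 46. The coding gene on the other side of that gap is Eci2.

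The gap beyond the end of Gata3 on chromosome 2 held 5 members, 54.0 to 139 kb from the gene. From the side of Gata3 they scored 22, 25, 22 and 23 (at 9802751 to 9803400), 14, 18, 27 and 24 (at 9791751 to 9792450), 11, 12, 17 and 12 (at 9764251 to 9764850), 34, 36, 27 and 36 (at 9733051 to 9733750) and 9, 9, 14 and 8 (at 9717801 to 9718350). A further 2 members with Gata3 as the nearest coding gene lay in another gap more than 1000 kb away. The strongest of the 7, at 9733051, was lower in each list than the peak at the start of Gata3.

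**Figure D4:**
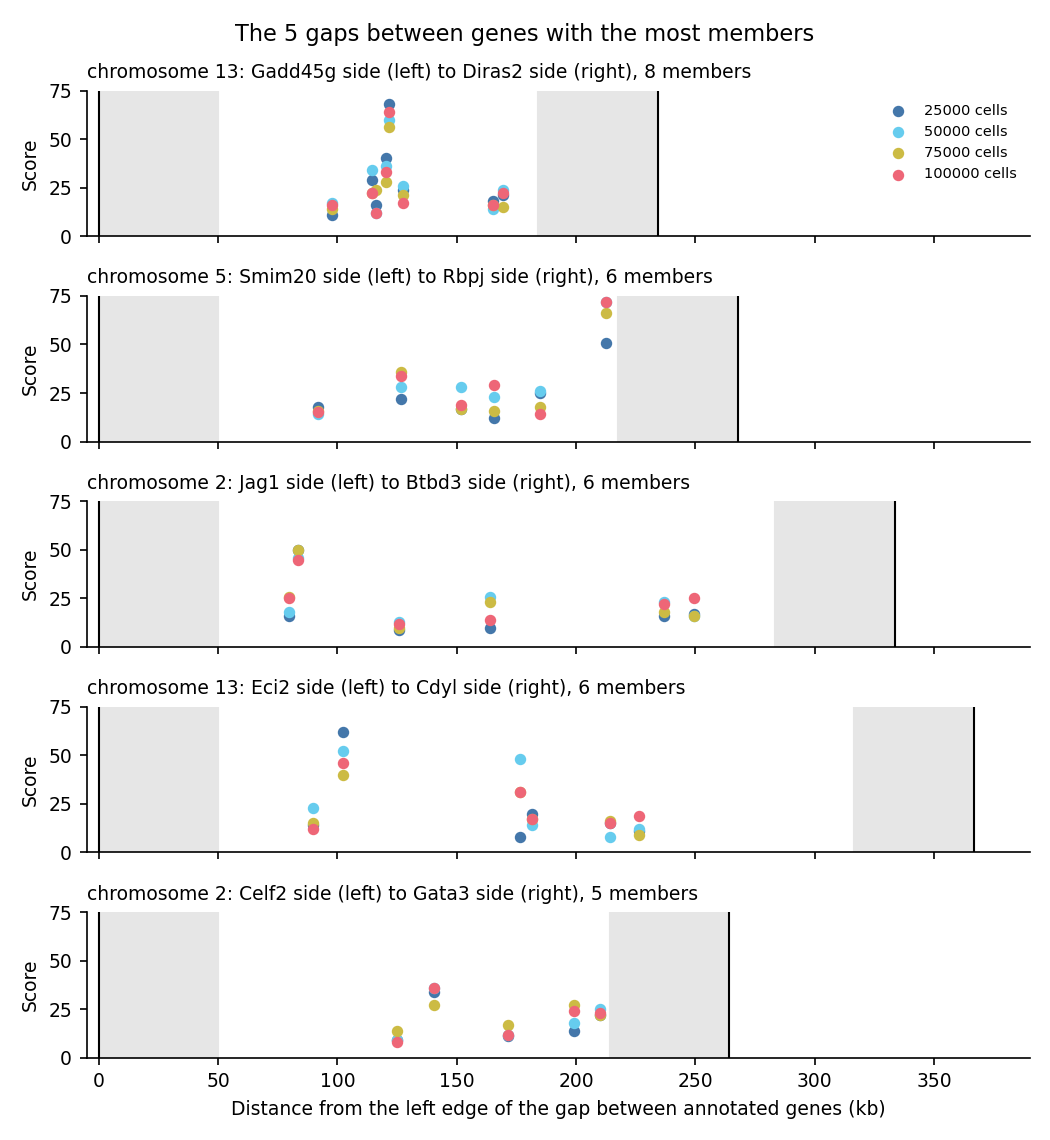
Scores of members in the 4 lists (coloured points) along the 5 gaps between annotated genes with the most members (the last is 1 of 6 gaps with 5, taken for its density), against distance from the left edge of the gap (kb); black lines are the edges and grey the 50 kb next to a gene, where no member can lie. Each gap is named by the protein-coding genes on either side, which can lie beyond non-coding genes at its edges, and 8, 6, 6, 6 and 5 members are shown.

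The members had 380 protein-coding genes as their nearest. This is 19.1% of the 1987 protein-coding genes that are nearest to some distal sequence and so could have been named. Of the 380, 249 were nearest to 1 member, 86 to 2, 29 to 3 and 16 to 4 or more. Gadd45g had 8, Gata3 7, and Cdyl, Jag1 and Gpam, which encodes a mitochondrial acyltransferase of lipid synthesis, 6 each. Of those with 5, Sema3e encodes a secreted guidance protein, Ncam1 a neural cell adhesion molecule, Sugct a mitochondrial CoA transferase and Cited2 a co-activator binding protein. Genes with 4 were Slc10a2, Zfp703, Rbpj, Kirrel3, the matrix protein gene Dpt, the glutamate receptor gene Grm7 and the neuronal splicing factor gene Nova1. Nearest did not always mean close. The members of Cited2 lay 1122 to 1215 kb from it, those of Slc10a2 178 to 1709 kb and those of Nova1 112 to 1135 kb.

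Genes that were nearest to a member carried peaks at their own starts more often than genes that flank distal sequence without one. Starts were given for 285 of the 380 genes, and 150 of these (52.6%, 46.7 to 58.6) had a peak within 1 kb of a start in all 4 lists. Of genes nearest to distal sequence but to no member, 458 of 1238 did (37.0%, 34.3 to 39.8), and of all autosomal protein-coding genes with a start 47.5%. Over all genes that could have been named it was 39.9%. The share was 46.5% (39.2 to 53.9) for genes nearest to 1 member, 57.1% (44.0 to 69.5) for 2 and 77.1% (59.9 to 89.6), or 27 of 35, for 3 or more. The intervals of neighbouring steps overlap. Counted at either annotated gene end, where many starts are missed, it was 45.8% (174 of 380) against 34.9% without a member. Over all that could have been named it was 37.0%, and over all autosomal coding genes 45.6%. By gene end, genes nearest to 1 member gave 43.4% (37.1 to 49.8) and those nearest to 2 gave 51.2% (40.1 to 62.1). Those nearest to 3 or more gave 48.9% (33.7 to 64.2), or 22 of 45, so the share did not rise further there.

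The order was the same among genes with like amounts of distal sequence beside them. With up to 50 kb it was 70.5% (31 of 44, 54.8 to 83.2) against 43.7% (39.5 to 48.0). With 50 to 150 kb it was 48.4% (37.7 to 59.1) against 35.1% (30.1 to 40.4). With 150 to 400 kb it was 54.8% (42.7 to 66.5) against 26.9% (21.2 to 33.2). Above that it was 45.5% (35 of 77, 34.1 to 57.2) against 30.5% (22.4 to 39.7). The intervals overlap at 50 to 150 kb and above 400 kb. With members taken at 100 kb or more from genes it was 58.7% against 29.2%, and with peaks at or above the median score of each list 41.5% against 28.4%. Genes are not replicates, and these shares are given with no test.

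**Figure D5:**
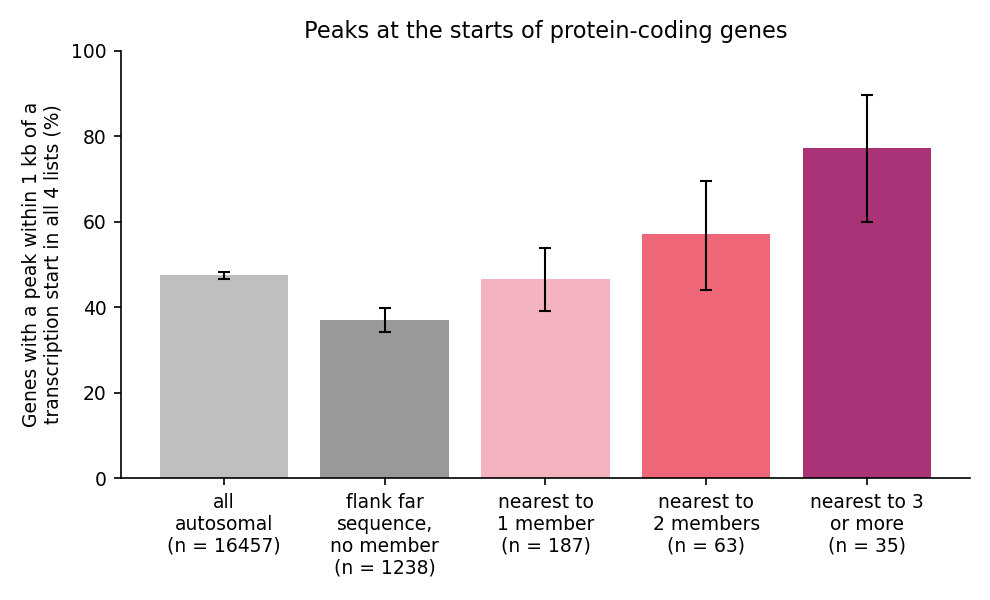
Share of protein-coding genes (%) with a peak within 1 kb of an annotated transcription start in all 4 lists (bars) with 95% Clopper-Pearson intervals; n is the number of genes with an annotated start. It is 37.0% for genes that flank distal sequence without a member and 77.1% for genes nearest to 3 or more members. Counted at either gene end (not drawn), these shares are 34.9% and 48.9%.

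Among the 16 genes with 4 or more members, start peaks were found in all 4 lists at 10 of the 13 with an annotated start. Slc10a2, a bile acid transporter gene, had a start peak only at 100000 cells, with a score of 10, and 4 members that scored 9 to 29. Jag1 had 37, 30, 33 and 38, Rbpj 35, 46, 53 and 62, Cited2 47, 39, 33 and 32, and Sugct 57, 50, 81 and 79. Nova1 had 10, 26, 32 and 27, Sema3e 18, 15, 20 and 27 and Gpam 21, 14, 24 and 32. Dpt and Grm7 had no listed peak at a start or gene end in any list, although 4 members had each of them as the nearest coding gene. The member of highest score percentile was 20, 26, 32 and 26 for Dpt and 34, 16, 24 and 32 for Grm7. Ncam1 and Zfp703, without a start in the table, had peaks at a gene end in all 4 lists, and Kirrel3 had none.

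Members lay on both sides of genes. Of 447 members whose nearest coding gene has a known strand, 253 lay before its start (56.6%, 51.9 to 61.2) and 194 after its end. Of the distal sequence itself, 52.4% lies before the start of its nearest coding gene. The interval treats members as separate, although those near the same gene can share a side, so nothing is read from it. All 8 members of Gadd45g and all 7 of Gata3 were beyond the end of the gene. All 6 of Jag1, all 6 of Cdyl and all 5 of Cited2, the last 1122 to 1215 kb away, lay before the start.

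Transcription factor genes were counted in lists, which were chosen with earlier results of these data known. Genes with more distal sequence beside them were nearest to a member more often. With up to 50 kb of it, 62 genes were and 703 were not, and with 50 to 150 kb 116 were and 459 were not. With 150 to 400 kb 107 were and 289 were not, and above 400 kb 95 were and 156 were not. The share over all genes given below does not allow for this. Of 27 genes of the GATA, RUNX, KLF, TEAD and AP-2 families, 11 could be nearest to a distal region, and 7 of these were nearest to a member (18 members in all), beside 19.1% of all genes that could be. They were Gata3 (7 members), Klf6 and Klf4 (3 each), Tfap2a (2), Runx1, Gata6 and Klf5. These 7 had 34.1 to 459 kb of distal sequence beside them. The strongest member of Klf6 scored 24, 40, 24 and 24 at 323 kb, beside start peaks of 59, 67, 60 and 47. Klf4, with 25, 23, 22 and 30 at 176 kb, had start peaks of 16, 23, 23 and 17. Tfap2a, a regulator of ectoderm-derived epithelia, had a member of 35, 35, 46 and 37 at 108 kb and a start peak in 2 lists, of 18 at 50000 and 14 at 100000 cells.

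The other lists of factors had fewer members in total, and each count is set beside the same 19.1% of all genes that could be nearest. Of the SOX genes, 1 of 6 that could be nearest to a distal region was nearest to a member, Sox11, with 3 members before its start, the strongest of 23, 43, 35 and 27, and no peak at its start. Of the forkhead genes it was 2 of 8, Foxp1 with 3 members (the strongest of 40, 38, 44 and 31) and Foxq1 with 1 (11, 18, 20 and 23). Of the homeobox and related genes it was 5 of 23, among them Tshz1 with 2 members and Zfhx4 with 1. The stronger member of Tshz1 scored 34, 12, 27 and 37 at 194 kb, and that of Zfhx4 26, 31, 45 and 17 at 529 kb. Of the ETS and nuclear receptor genes it was 4 of 10, which were Rorb with 2 members (the strongest of 41, 64, 65 and 65 at 586 kb), Nr2f2 with 2, and Nr2f1 and Rarb with 1 each.

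Signalling genes were counted in the same way, beside the same 19.1% of all genes that could be nearest. Of the genes of the TGF-beta and BMP pathway, to which NMuMG cells are known to respond, 14 of 39 could be nearest and 4 were. Bmp2, a ligand gene, had 3 members, the strongest of 11, 15, 22 and 24, and Bmp4 2, the strongest of 18, 14, 21 and 25, and neither had a listed peak at a start or gene end. Id2, a target gene, had 1 member of 13, 24, 22 and 34 at 532 kb, and Bambi, a pseudoreceptor gene, 1 of 8, 13, 24 and 19. Of Wnt and FGF genes it was 1 of 13, the receptor gene Fzd1, and of genes of the epithelial-mesenchymal transition 2 of 6, Zeb2 (21, 23, 21 and 31, at 1395 kb) and Twist2 (10, 15, 23 and 14). None of the 2 AP-1 and immediate early genes and the 1 Hippo pathway gene that could be nearest was nearest to a member.

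Most genes of the cadherin list flank distal sequence. Of 24 cadherin and protocadherin genes, 19 could be nearest and 7 were, with 10 members. Of all 20560 autosomal coding genes 1987 could be nearest, and 19.1% of these were nearest to a member. The 7 had 566 to 2576 kb of distal sequence beside them. Of all genes with more than 400 kb of it, 95 were nearest to a member and 156 were not. Cdh6 had 3, the strongest of 40, 44, 47 and 47, beside start peaks of 42, 44, 53 and 44. Pcdh10 had 2, the strongest of 23, 23, 25 and 24, with start peaks of 29, 33, 38 and 37, while Cdh9 and Cdh18 had 1 each and no peak at a start. Of integrin and matrix genes it was 3 of 11, Col12a1 with 2 members and Itga1 and Has2 with 1 each.

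Genes of differentiated cells differed by list. Over all genes that could be nearest, 19.1% were nearest to a member. No epithelial gene of 30 and no housekeeping gene of 20 was nearest to any distal sequence, so that none could be named. Of the mammary luminal genes it was 1 of 4 (Gata3) and of the mammary basal genes 1 of 4, Trp63, with a member of 14, 12, 12 and 17 at 67.9 kb and no peak at a gene end. Of the neuron genes 15 of 24 could be nearest and 5 of these were nearest to a member, beside the same 19.1%. They were Grm7 with 4, Csmd1 with 2 and Robo1, Lsamp and Lrrtm4 with 1 each. These 5 had 325 to 980 kb of distal sequence beside them. Of genes with 150 to 400 kb of it, 107 were nearest to a member and 289 were not, and above 400 kb 95 and 156. Of the 4 with an annotated start, Robo1 alone had a start peak in all 4 lists (12, 16, 15 and 18). Of the blood cell genes it was 1 of 2, Ptprc, with 2 members 474 to 501 kb beyond its end (the stronger of 27, 29, 19 and 26) and no peak at its start.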

How the data were processed

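ATAC-seq was measured in 4 NMuMG libraries, 1 per cell number, grouped by their titles. The submitters' processing notes name Bowtie 0.12.8, bedtools 2.17.0 and Picard 1.107 along with SAMtools and cutadapt, and the builds mm10 and hg19, of which mm10 was taken for the mouse lists. For every library a peak list with a score per peak was deposited. The peak caller's settings, the quantity behind the score, any Tn5 shift and any thinning of reads: not given in the sources used here. Scores were compared within a list, and values of several lists are set side by side only. Depth is unknown.

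Peaks sharing at least 1 bp were merged, and a region takes its highest peak score in each list. Genes came from a RefSeq table of GRCm38.p6 (49980 genes on chromosomes). The 340 genes placed in the first 3 Mb of an autosome or X, where the first peak of any list starts at 2999851, were left out, since their positions may be those of unplaced sequence. Genes misplaced in this way above 3 Mb could not be recognised and would alter distances. Distances run from a region's centre to the nearest gene body. Starts and strands came from a RefSeq promoter table, which covered 80.3% of 21792 protein-coding genes. Shares carry exact Clopper-Pearson 95% intervals. A planned look at the members' sequence needs a genome and was not run. Functions were tested on simulated data with planted regions, using Python 3.11.15, pandas 2.3.3 and scipy 1.17.1.

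Named were the 10 members of highest and 3 of lowest mean score percentile, the 3 widest, the 3 farthest from genes, the 5 largest groups (ties by summed score percentile), the 15 coding genes with the most members (no predicted genes, ties by highest score percentile, with Slc10a2, the gene that this tie leaves out, added afterwards), up to 4 per gene list, and the 3 regions on either side of the 50 kb limit. Others, such as the gaps and the most uneven member, were picked after their values were seen. The members and all 18 gene lists (444 genes) were chosen with earlier results of these data known. Some genes of the homeobox list are not reported here.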

Additional observations from a re-analysis of the deposited data

How the results depend on the processing

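Each of 8 results was recomputed under up to 17 settings, and 84 of 119 values stayed within 1.5 times the count or inside the 95% interval of the share or median. The number of members was 1348 at 25 kb or more from genes, 201 at 100 kb, 2607 with distances from protein-coding genes only and 230 with peaks at or above the median score. In that order, the genes nearest to a member numbered 809, 140, 1192 and 190, and the groups of 3 or more 31, 2, 88 and 1. Groups numbered 12 with the chromosome 15 block kept, 11 without pseudogenes, 3 linking within 5 kb and 21 within 50 kb. The share with a score of 25 or more in every list was 13.4% at 100 kb, 20.6% with coding genes only and 43.9% with peaks at or above the median. The share with another member inside the 25 kb window, or within the link given, was 24.6% at 25 kb or more from genes, 31.6% with coding genes only, 8.70% with peaks at or above the median, 21.9% with the block kept, and 10.9% and 39.0% with links of 5 and 50 kb. The median score percentile was 56.5, moving to 58.7 with coding genes only and 76.7 with peaks at or above the median. The median width was 700 bp with peaks at or above the median and 250 bp with peaks resized to 200 bp, which sets the width. The share of nearest genes with a gene-end peak was 53.9% at 25 kb, 52.3% with coding genes only, 35.3% with peaks at or above the median, 51.3% in a 2 kb window and 52.6% at starts. The alternatives at starts, without pseudogenes, without receptor genes and at other distances for start peaks were chosen after seeing the data. Except where the alternative by construction changes the number of regions or their width, the cause was not tested.

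Leaving out each library, and asking for a peak in the other 3, gave 636 to 718 members, a share at 25 or more of 16.5% to 17.1%, a median percentile of 53.0 to 54.1 and a median width of 650 bp. It gave 18.2% to 19.5% with a neighbour, 7 to 9 groups, 404 to 435 genes and a gene-end share of 46.3% to 47.4%. The most members, 718, came without the library of 25000 cells, the shortest list. No paired analysis was possible because each cell number has 1 library and no result comes from a test. Regions scoring under 8 are not listed, so that a region missing from a list may be open below that level.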

Other observations

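Distal regions that the rule leaves out differed in score from the members. On chromosome 15 from 61 to 64 Mb, 50 regions of all 4 lists were 50 kb or more from genes, with median scores of 27, 25, 27 and 31, and 23 of them scored 25 or more in every list. The highest, at 62328101 to 62329350 and 68.5 kb from Pvt1, is wider (1250 bp) and scored higher in each list than any member. The next, at 62500701 to 62501600, scored 379, 450, 423 and 471. The copy number of this block was not measured.

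On chromosome X, 22 such regions were found in 34.9 Mb of distal sequence, or 0.631 per Mb, a density below that of each autosome. Their median scores were 12, 12, 13.5 and 14, and none scored 25 or more in every list. The number of X copies in these cells was not measured.

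Autosomal distal regions found in fewer lists were weak. The 637 found in 1 list had a median score of 9 and a highest score of 25, and 81, 177, 168 and 211 of them came from the lists of 25000, 50000, 75000 and 100000 cells. Of the 294 found in 3 lists, 129 were missing at 25000 cells, 53 at 50000, 65 at 75000 and 47 at 100000, and their highest score was 33. The 25000-cell list is the shortest of the 4.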
